A study of Mus musculus with 16 samples.

Results

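The endothelial cell genes followed here are 37 genes whose products mark or build the inner lining of blood and lymph vessels. They were measured in RNA of cultured mouse myoblasts, which are the proliferating descendants of muscle stem cells. The members were chosen by name: a gene belonged to the set if its symbol stood on the list and a probe on the array carried that symbol. All 37 had a probe, out of 34836 gene names on the array, and they were read by 51 probes. Of them, 35 passed the filter on low signal that left 20317 genes for testing, and Flt4 and Lyve1 did not pass.

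The samples were 16 preparations from male C57Bl/6J mice aged 11 to 13 weeks, in 4 groups of 4 arrays. For the dispersed groups, cells were plated on gelatin without their fibers and harvested 48 or 72 hr after isolation. Myofiber-associated myoblasts stayed on explanted single fibers for 48 or 72 hr and were then washed and trypsinized off them. Per the labels, each dispersed preparation came from 1 mouse and each myofiber-associated preparation from 2, and the RNA of 1 myofiber-associated 48-hr array was a pool of 2 preparations. No sort for a surface marker is stated for either culture. Each culture had a slide to itself (8 arrays each), and the effect of culture therefore cannot be told apart from that of slide. Within a slide, columns 1 and 2 held the later time and columns 3 and 4 the earlier one, which ties time to column in the same way.

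Endothelial cells line every vessel of skeletal muscle, where capillaries run along each fiber. They are told apart from muscle cells by receptors for vascular endothelial growth factors and angiopoietins, by the junction proteins that seal the vessel wall, and by transcription factors of the ETS and SOX families that switch on these genes. They also secrete von Willebrand factor, which tethers platelets at a wound, and make nitric oxide, which relaxes the vessel.

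Promoter sequences of 19 members were held in the RefSeq tables (build GRCm38.p6), as 25 entries because some genes have several start sites. The ETS-type letters CAGGAA, read on both strands over the 250 bases before the start site, stood in 13 of these 25 entries, which is 52% of them, and in 25.7% of all 32851 promoters of the table. GATA-type letters AGATAA stood in 3 of the 25 entries against 9.99% of all promoters, and SOX-type letters ACAAAG in 4 of the 25 against 16.5%. The upstream windows of 4 genes are printed below, 5′ to 3′ on the gene's own strand, with the CAGGAA letters or their reverse complement in capitals. Tek (chr4:94739039-94739288, plus strand) and Tie1 (chr4:118489850-118490099, minus strand) are shown as a receptor pair that fell in both cultures. Emcn (chr3:137340828-137341077, plus strand) and Apold1 (chr6:134981751-134982000, plus strand) are shown as 2 genes whose change differed between the cultures. Ly6c1, whose change also differed, is not shown, and its 2 entries held no CAGGAA letters. All 4 windows shown hold the letters, against 12 of the 19 members with an entry. A match of letters is a description and shows no binding.
Tek: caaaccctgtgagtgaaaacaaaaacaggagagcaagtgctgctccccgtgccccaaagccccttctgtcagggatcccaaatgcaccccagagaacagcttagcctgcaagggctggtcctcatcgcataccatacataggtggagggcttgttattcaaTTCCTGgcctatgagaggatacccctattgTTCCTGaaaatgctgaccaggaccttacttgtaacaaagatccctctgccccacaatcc
Tie1: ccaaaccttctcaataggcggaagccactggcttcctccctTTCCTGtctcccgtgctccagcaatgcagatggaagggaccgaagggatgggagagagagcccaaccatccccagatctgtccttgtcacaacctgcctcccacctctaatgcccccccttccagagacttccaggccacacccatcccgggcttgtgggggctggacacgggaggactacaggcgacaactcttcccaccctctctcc
Emcn: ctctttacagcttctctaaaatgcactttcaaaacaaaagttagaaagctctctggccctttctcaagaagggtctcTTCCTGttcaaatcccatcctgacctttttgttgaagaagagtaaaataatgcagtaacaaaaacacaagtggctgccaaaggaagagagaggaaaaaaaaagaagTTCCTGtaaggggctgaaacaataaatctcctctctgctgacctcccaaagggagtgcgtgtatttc
Apold1: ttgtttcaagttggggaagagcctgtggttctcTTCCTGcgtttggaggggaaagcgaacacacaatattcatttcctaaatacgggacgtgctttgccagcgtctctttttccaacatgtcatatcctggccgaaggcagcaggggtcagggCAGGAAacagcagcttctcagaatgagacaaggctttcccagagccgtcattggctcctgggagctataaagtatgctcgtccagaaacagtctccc

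In the Tek window the matches began 89 and 59 bases before the start site, and in the Emcn window 173 and 67 bases before it. Apold1 held them at 217 and 97 bases, and Tie1 held 1 at 209 bases. No CAGGAA letters lay in the windows of Kdr, Flt1, Flt4, Cldn5, Eng, Ly6c1 and Tal1. The 3 entries of Egfl7 held 2, 1 and 0 matches. The 18 other members, which include Cdh5, Pecam1, Sox18 and Vwf, had no entry.

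All 4 groups carried the myoblast genes Pax7 and Myod1, while Myog differed widely between them. The mean log2 signal of Pax7, the factor that marks muscle stem cells and myoblasts, was 11.07, 11.26, 10.21 and 11.89 in the dispersed 48-hr, dispersed 72-hr, myofiber-associated 48-hr and myofiber-associated 72-hr groups. Myod1, the myogenic determination factor, gave 14.41, 14.85, 14.69 and 15.32 in the same order. Myog, the differentiation factor myogenin, gave 6.05, 9.96, 14.30 and 13.66. At 48 hr Myog was higher in myofiber-associated than in dispersed myoblasts by 8.25 ± 0.38 log2 units (SE, limma, adjusted p = 4.11e-09). Log2 signal here and below is the scanner's processed signal after loess and quantile normalization, and levels are compared between arrays for 1 probe, never between probes. The share of probes well above background ran from 54.1% to 63.5% over the 16 arrays, no gene spot was saturated, and pairs of arrays of a group correlated with Pearson's r of 0.980 to 0.998 across genes. Precision is limited by having 4 arrays in a group. The labels describe the myofiber-associated preparations as free of fiber RNA, and the 10 adult fiber genes listed further on had mean log2 signals of 15.51 to 16.28 and 12.73 to 15.14 on those arrays at 48 and 72 hr.

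Most of the endothelial genes were detected in every group. The 35 genes tested had passed a filter on median signal over the 16 arrays, which favors detected genes. Of the members it removed, Lyve1 was above background on no myofiber-associated array, and Flt4 on none of those at 72 hr. All 35 genes tested were well above background on every array of the dispersed 48-hr, dispersed 72-hr and myofiber-associated 48-hr groups, and 33 of 35 on every myofiber-associated 72-hr array. The mean log2 signal over the 35 genes was 11.77 to 12.23 on the dispersed 48-hr arrays, 10.39 to 10.83 at 72 hr, 9.10 to 10.14 with the fiber at 48 hr and 7.28 to 8.24 with it at 72 hr, with no overlap between groups. For 31 of 37 members the group means fell in this same order, dispersed 48 hr, dispersed 72 hr, myofiber-associated 48 hr and myofiber-associated 72 hr. The exceptions were Kdr, Ramp2, Calcrl, Aplnr, Plvap and Apold1. The highest mean stood in the dispersed 48-hr group for 36 of 37 members and the lowest in the myofiber-associated 72-hr group for 36 of 37. How often genes outside the set show this order, or have these groups highest and lowest, was not counted. In RNA of a whole preparation, fewer endothelial cells and less of these RNAs per cell cannot be told apart.

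**Figure D1:**
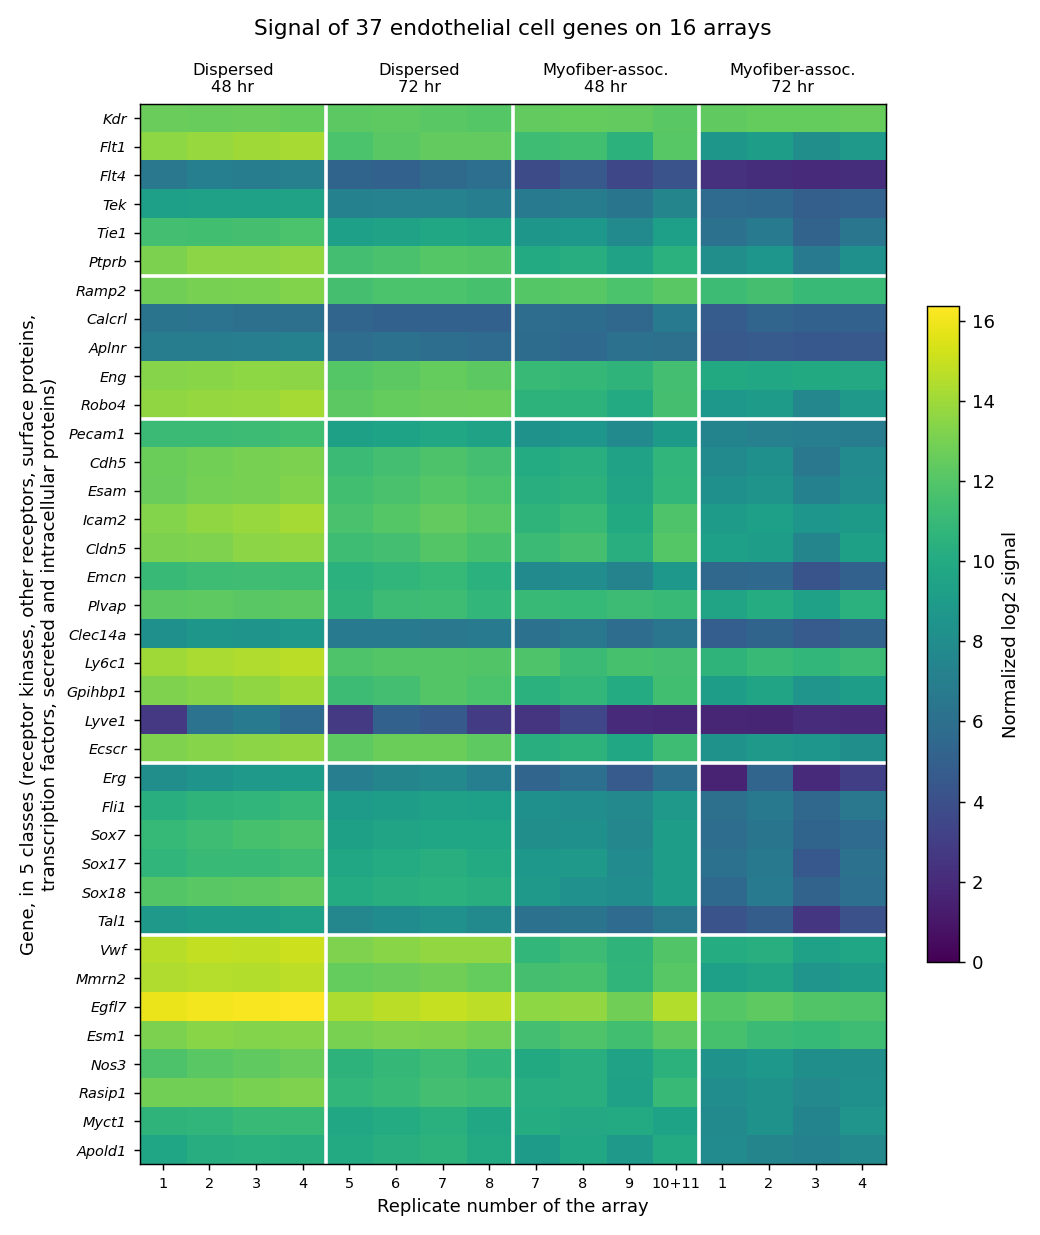
Normalized log2 signal (color) of the 37 genes (rows, in 5 classes) on the 16 arrays (columns, 4 per group, by replicate number). Most rows darken from the dispersed 48-hr arrays on the left to the myofiber-associated 72-hr arrays on the right, and Kdr, read by its brighter probe, stays near 12.

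The arrays of a group differed from each other in the same way for most of the genes. Among the dispersed 48-hr arrays, replicate 1 was the lowest for 30 of 35 genes and replicate 4 the highest for 28. Among the dispersed 72-hr arrays, replicate 5 was the lowest for 26 genes and replicate 7 the highest for 25. The pooled myofiber-associated 48-hr replicate was the highest of its group for 29 genes and replicate 9 the lowest for 30. At 72 hr on the fiber, replicate 3 was the lowest for 27 genes and replicate 2 the highest for 25. The median SD of a gene over the 4 arrays of a group was 0.208 and 0.232 log2 units in the dispersed 48- and 72-hr groups and 0.542 and 0.420 in the myofiber-associated ones, where the medians over all genes tested were 0.0949, 0.102, 0.216 and 0.180.

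In dispersed myoblasts the endothelial genes fell between 48 and 72 hr. Of the 35 genes tested, 32 were lower at 72 hr and none higher (limma, two-sided, Benjamini-Hochberg adjusted p over all genes, threshold 0.01), where 6.35% of all genes tested were lower and 7.37% higher. Their median log2 change was -1.41, a fold of 2.66, against 0.02 over all genes tested. For 33 of 35 genes every 72-hr value lay below every 48-hr value, which held for 13.7% of all genes tested. The 3 genes that did not pass were Emcn (log2 change -0.54, adjusted p = 0.0200), Esm1 (-0.25, adjusted p = 0.0627) and Apold1 (0.08, adjusted p = 0.784).

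In myofiber-associated myoblasts 21 of the 35 genes were lower at 72 than at 48 hr and none was higher (limma, adjusted p), where 1.75% of all genes tested were lower and 3.74% higher. The median log2 change of the 35 genes was -1.93, a fold of 3.80, against 0.06 over all genes tested. For 32 of 35 genes every 72-hr value lay below every 48-hr value, which held for 10.4% of all genes tested. The adjusted p of 12 of the 14 genes that did not pass lay between 0.01 and 0.05, and with a threshold of 0.05 the count was 33, where 9.13% of all genes tested were lower. The count of 21 rested on single arrays and on the filter: it was 2 without the 48-hr replicate 7, 5 without replicate 8, 3 without the 72-hr replicate 1, 13 without the 72-hr replicate 3, and 4 when no filter on low signal was applied. The median stayed between -2.11 and -1.77 whichever array was left out. Calls of single genes on the fiber moved as well. Over 17 alternatives in processing or arrays, Aplnr passed in 17, Emcn in 16, Flt1 in 15, Sox18 in 14 and Nos3 in 12. Cdh5 and Tie1 passed in 11, Apold1 in 9, Tek, Pecam1 and Sox17 in 8, and Ramp2 in 6.

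**Figure D2:**
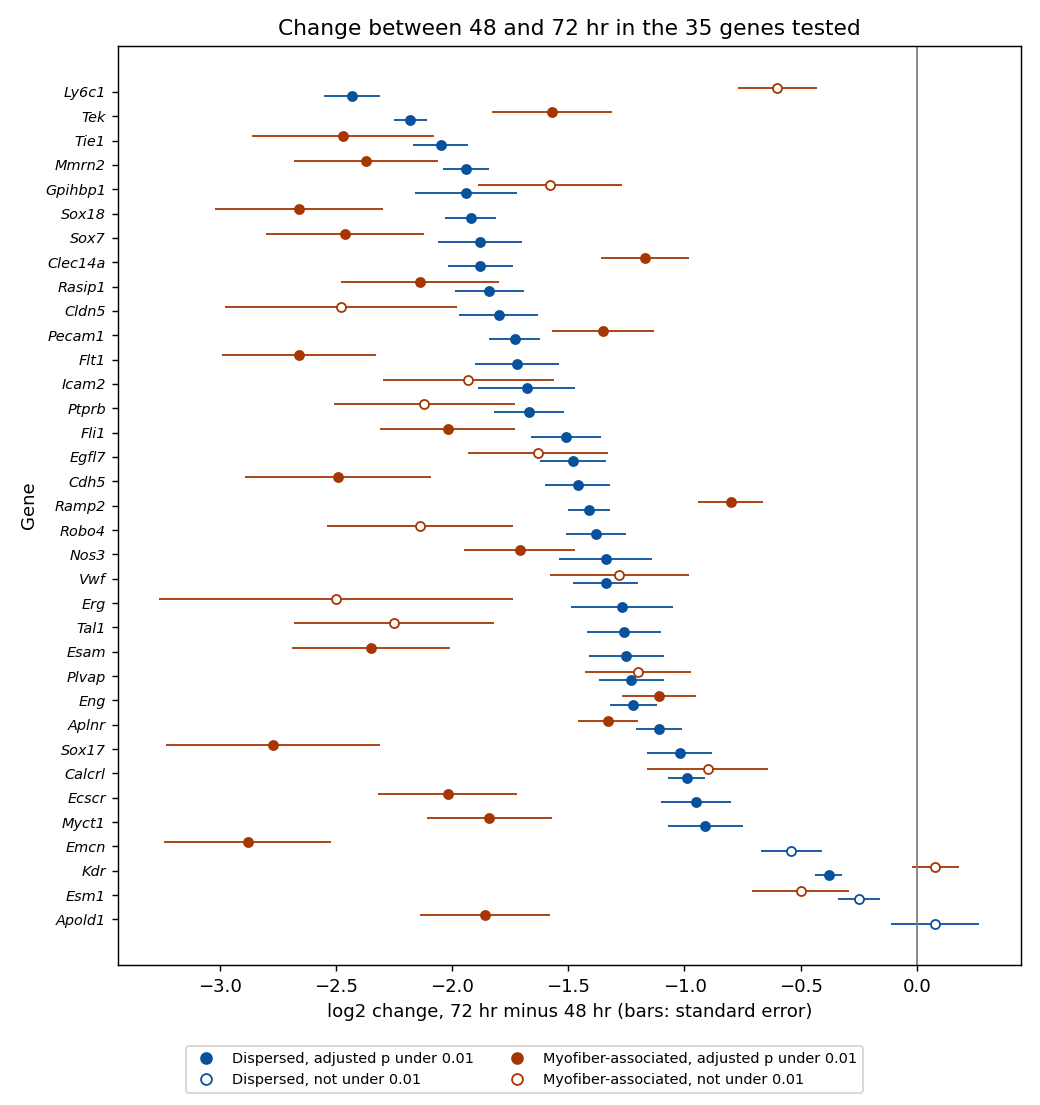
The log2 change from 48 to 72 hr (horizontal axis, bars give the standard error) of the 35 genes tested (vertical axis) in dispersed (blue) and myofiber-associated (brown) myoblasts, with filled points for an adjusted p under 0.01. All points but Kdr in the myofiber-associated and Apold1 in the dispersed myoblasts lie below 0.

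The receptor tyrosine kinases and the receptor phosphatase of the set had a median log2 change of -1.72 off the fiber, with 5 of 5 genes tested passing, and of -2.12 in myofiber-associated myoblasts, with 3 of 5 passing. Tek (probe at chr4:94540624-94540683, plus strand, mm9), the receptor for angiopoietins, read 9.26, 9.36, 9.39 and 9.44 on the dispersed 48-hr arrays and 7.18, 7.28, 7.26 and 6.99 at 72 hr. On the fiber it read 6.83, 6.94 and 6.39 with 7.46 in the pool at 48 hr, and 5.74, 5.56, 4.93 and 5.13 at 72 hr. The times did not overlap in either culture. Its log2 change was -2.18 ± 0.07 (SE, limma, n = 4 per group, adjusted p = 8.21e-06) in dispersed and -1.57 ± 0.26 (adjusted p = 0.00655) in myofiber-associated myoblasts, the second being -0.89 with normexp background correction (adjusted p = 0.0119).

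Tie1, the partner receptor of Tek (chr4:118144132-118144191, minus strand), read 11.47, 11.42, 11.55 and 11.72 on the dispersed 48-hr arrays and 9.21, 9.45, 9.76 and 9.54 at 72 hr. The myofiber-associated arrays gave 8.65, 8.75 and 7.84 with 9.25 in the pool at 48 hr, and 6.12, 6.82, 5.24 and 6.45 at 72 hr. Its log2 change was -2.05 ± 0.12 (limma, adjusted p = 4.37e-05) and -2.47 ± 0.39 (adjusted p = 0.00549), again without overlap. Flt1, a receptor that binds vascular endothelial growth factor (chr5:148373791-148373850, minus strand), read 13.56, 13.83, 14.01 and 14.20 and then 11.74, 12.17, 12.42 and 12.40 in dispersed myoblasts. Its values on the fiber were 11.30, 11.39 and 10.53 with 12.09 in the pool, and then 8.67, 9.13, 8.08 and 8.79. Flt1 had, with Emcn, Sox17 and Sox18, one of the largest falls on the fiber, with a log2 change of -2.66 ± 0.33 (limma, adjusted p = 0.00258), and it was -1.72 ± 0.18 (adjusted p = 0.000448) off the fiber. The phosphatase Ptprb, which acts on Tek, changed by -1.67 ± 0.15 (adjusted p = 0.000203) and -2.12 ± 0.39 (adjusted p = 0.0103).

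Kdr, the main signaling receptor for vascular endothelial growth factor, gave a different answer with each of its 2 probes. Both probes lie on the minus strand of chromosome 5 (mm9), 1086 bases apart, at chr5:76330395-76330454 and chr5:76329309-76329368. The first has the higher mean over the 16 arrays and stood for the gene in the counts. It read 12.59, 12.57, 12.61 and 12.51 on the dispersed 48-hr arrays, 12.23, 12.31, 12.17 and 12.06 at 72 hr, 12.44, 12.48 and 12.45 with 12.19 in the pool on the fiber at 48 hr, and 12.36, 12.47, 12.52 and 12.55 at 72 hr. All these values lie within a narrow band, although dispersed 48-hr and 72-hr arrays did not overlap (log2 change -0.38 ± 0.06, limma, adjusted p = 0.00287).

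The other Kdr probe read 13.37, 13.59, 13.68 and 13.77 on the dispersed 48-hr arrays and 11.47, 11.67, 11.83 and 11.82 at 72 hr. In myofiber-associated myoblasts the signal was 10.60, 10.66 and 9.92 with 11.02 in the pool at 48 hr, and 8.59, 8.78, 7.27 and 8.31 at 72 hr. It fell by 1.91 ± 0.11 log2 units in dispersed myoblasts (limma over all probes, adjusted p = 4.38e-05) and changed by -2.31 ± 0.35 on the fiber (adjusted p = 0.00526), and its group means ran in the order seen for 31 of the 37 members. No other member had probes past the filter that differed by more than 1.37 log2 units in their change within a culture. Myct1, a membrane protein of endothelial cells, had the next largest gap between its probes in level by culture: its mean signals in the 4 groups were 10.89, 9.97, 9.86 and 8.02 with the brighter probe and 10.12, 8.48, 6.37 and 4.07 with the other.

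**Figure D3:**
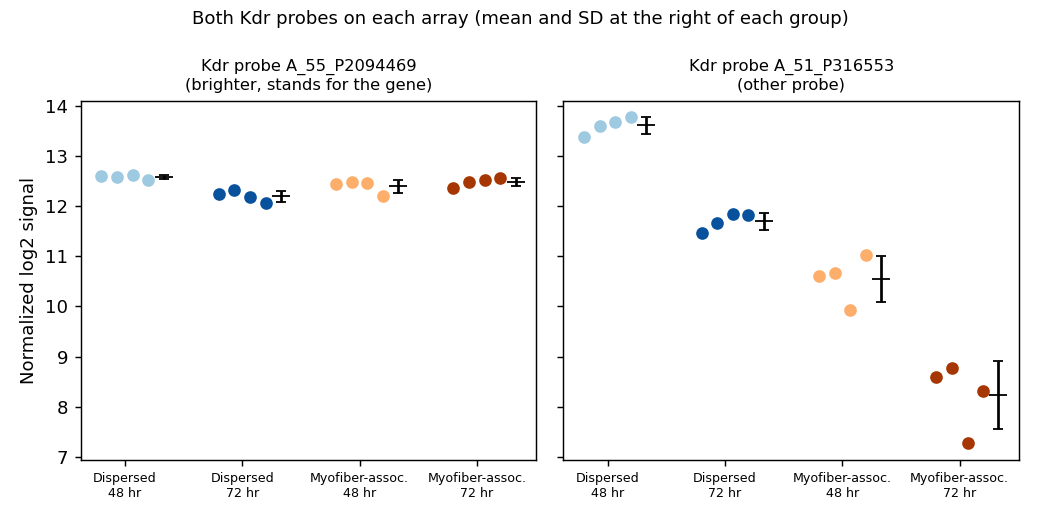
Normalized log2 signal (vertical axis) of both Kdr probes on each array of the 4 groups, with the mean and SD at the right of each group. The brighter probe stays between 12.06 and 12.61, while the other falls from 13.77 to 7.27.

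Flt4, the receptor for lymphatic growth factors, did not pass the filter and was not tested. It read 6.58, 7.04, 6.92 and 7.11 on the dispersed 48-hr arrays and 5.26, 5.07, 5.65 and 5.96 at 72 hr, all well above background. On the fiber 3 of 4 arrays were above background at 48 hr, with values of 3.75, 4.54 and 3.55 and 4.21 in the pool, and none at 72 hr (2.33, 2.14, 1.99 and 2.14). Its mean signal at 72 hr was 10.1-fold higher in dispersed than in myofiber-associated myoblasts. On the fiber it was 3.62-fold higher at 48 than at 72 hr. Such a fold sets the mean of the brighter group against the mean, over the dimmer arrays, of the higher of the gene's own signal and the lowest signal called well above background. That floor left the dimmer Flt4 mean at its measured 2.15. These folds are therefore ratios to signal not told apart from background, and they are not lower bounds.

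Among the other receptors, 5 of 5 genes fell off the fiber (median -1.22 on the log2 scale), and 3 of 5 passed on it (median -1.11). Ramp2, which pairs with the receptor Calcrl to bind adrenomedullin (chr11:101109501-101109560, plus strand), read 12.84, 13.03, 13.09 and 13.29 on the dispersed 48-hr arrays and 11.56, 11.75, 11.71 and 11.59 at 72 hr. On the fiber it read 12.04, 12.09 and 11.74 with 12.15 in the pool at 48 hr, and 11.20, 11.52, 11.01 and 11.09 at 72 hr. It changed by -1.41 ± 0.09 log2 units (limma, adjusted p = 6.58e-05) and -0.80 ± 0.14 (adjusted p = 0.00844), and the mean was higher on the fiber at 48 hr than off it at 72 hr, against the common order.

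Calcrl fell by 0.99 ± 0.08 off the fiber (limma, adjusted p = 0.000114) and changed by -0.90 ± 0.26 on it (adjusted p = 0.0421). Its mean signals in the 4 groups were 6.15, 5.16, 5.97 and 5.07, and, unlike for Ramp2, the cultures did not differ past the threshold at 48 hr (-0.18, limma, adjusted p = 0.455) or at 72 hr (-0.09, adjusted p = 0.757). Aplnr, the receptor for apelin (chr2:84979638-84979697, plus strand), read 6.91, 6.92, 7.02 and 7.16 and then 5.84, 6.15, 5.89 and 5.71 in dispersed myoblasts. The myofiber-associated arrays gave 5.79, 5.61 and 6.15 with 6.07 in the pool, and then 4.56, 4.69, 4.50 and 4.55. Aplnr changed by -1.11 ± 0.10 and -1.33 ± 0.13 log2 units (limma, adjusted p = 0.000213 and 0.00111), and dispersed 72-hr and fiber 48-hr values overlapped. With normexp background correction its changes were smaller, -0.69 and -0.55 (limma, adjusted p = 0.000144 and 0.00558). Eng, a co-receptor for TGF-beta family ligands, changed by -1.22 ± 0.10 and -1.11 ± 0.16 (adjusted p = 0.000133 and 0.00444), and Robo4, an endothelial guidance receptor, by -1.38 ± 0.13 and -2.14 ± 0.40 (adjusted p = 0.000254 and 0.0104).

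Junction and surface proteins had median log2 changes of -1.68 off the fiber, where 10 of 11 genes tested passed, and -1.93 on it, where 6 of 11 passed. Cdh5, the cadherin of endothelial junctions (chr8:106668159-106668218, plus strand), read 12.70, 12.89, 13.03 and 13.12 on the dispersed 48-hr arrays and 11.17, 11.45, 11.81 and 11.49 at 72 hr. Its values on the fiber were 10.08, 10.24 and 9.40 with 10.74 in the pool at 48 hr, and 7.86, 8.21, 6.54 and 7.88 at 72 hr. Its log2 change was -1.46 ± 0.14 (limma, adjusted p = 0.000310) in dispersed and -2.49 ± 0.40 (adjusted p = 0.00607) in myofiber-associated myoblasts. The 4 groups did not overlap.

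Pecam1, the adhesion molecule CD31 (chr11:106540864-106540923, minus strand), read 11.13, 11.13, 11.24 and 11.42 and then 9.29, 9.52, 9.76 and 9.45 in dispersed myoblasts. In myofiber-associated myoblasts the signal was 8.38, 8.58 and 7.86 with 8.94 in the pool, and then 7.37, 7.10, 6.98 and 6.89. Here too the 4 groups were apart, with changes of -1.73 ± 0.11 (limma, adjusted p = 5.45e-05) and -1.35 ± 0.22 (adjusted p = 0.00655). Plvap, which forms the diaphragms of fenestrated vessels (chr8:74021877-74021936, minus strand), read 12.22, 12.27, 12.18 and 12.22 and then 10.64, 11.20, 11.31 and 10.81 off the fiber. On the fiber it read 11.06, 10.94 and 11.21 with 11.10 in the pool, and then 9.58, 10.10, 9.35 and 10.47. Plvap fell by 1.23 ± 0.14 in dispersed myoblasts (limma, adjusted p = 0.000663), its change on the fiber was -1.20 ± 0.23 (adjusted p = 0.0115), and its dispersed 72-hr and fiber 48-hr values overlapped.

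Ly6c1, a surface protein of capillary endothelium that some leukocytes also carry (chr15:74875495-74875554, minus strand), had the largest fall in dispersed myoblasts. It read 14.04, 14.30, 14.42 and 14.65 at 48 hr and 11.84, 11.96, 11.98 and 11.90 at 72 hr, a change of -2.43 ± 0.12 log2 units (limma, adjusted p = 2.96e-05). The myofiber-associated arrays gave 11.87, 11.17 and 11.62 with 11.49 in the pool, and then 10.66, 11.09, 10.86 and 11.12, a change of -0.60 ± 0.17 (adjusted p = 0.0379). Both times were apart in both cultures. The members Esam, Icam2, Cldn5, Clec14a, Gpihbp1 and Ecscr, which are adhesion, tight-junction and lipoprotein-binding proteins among others, changed by -1.94 to -0.95 in dispersed myoblasts, all 6 passing. On the fiber they changed by -2.48 to -1.17, and Esam, Clec14a and Ecscr passed.

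Lyve1, the hyaluronan receptor of lymphatic endothelium, did not pass the filter either and was not tested. It read 2.74, 6.24, 6.82 and 5.70 on the dispersed 48-hr arrays, with 3 of 4 above background, and 2.77, 5.07, 4.64 and 2.82 at 72 hr, with 2 of 4 above background. On the fiber no array was above background at 48 hr (2.50, 3.46 and 2.04, with 1.86 in the pool) or at 72 hr (1.74, 1.72, 2.05 and 2.01). By the measure used for Flt4 it was 7.38-fold higher in dispersed than in myofiber-associated myoblasts at 48 hr, and 3.56-fold at 72 hr. These too are ratios to signal not told apart from background, and the dispersed means include arrays that were not above it. The dispersed values overlapped between times.

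For the transcription factors the median log2 change was -1.39 off the fiber, where 6 of 6 passed, and -2.48 on it, where 4 of 6 passed. Sox18, which acts in arterial and lymphatic specification (chr2:181404789-181404848, minus strand), read 11.98, 12.18, 12.22 and 12.46 and then 10.06, 10.30, 10.44 and 10.35 in dispersed myoblasts. Its values on the fiber were 8.76, 8.25 and 8.01 with 9.13 in the pool, and then 5.60, 6.73, 5.19 and 5.99. Its changes were -1.92 ± 0.11 (limma, adjusted p = 4.69e-05) and -2.66 ± 0.36 (adjusted p = 0.00328), and the 4 groups did not overlap. Sox7 and Fli1 passed in both cultures, with changes of -1.88 ± 0.18 and -1.51 ± 0.15 off the fiber and -2.46 ± 0.34 and -2.02 ± 0.29 on it.

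Sox17 (chr1:4481503-4481562, minus strand), another SOX factor of arterial endothelium, read 10.76, 11.06, 11.11 and 11.27 and then 9.77, 10.05, 10.30 and 10.01 in dispersed myoblasts. In myofiber-associated myoblasts the signal was 8.72, 8.76 and 7.88 with 9.17 in the pool, and then 6.16, 6.61, 4.50 and 6.18, among which replicate 3 is low. It changed by -1.02 ± 0.14 (limma, adjusted p = 0.00130) and -2.77 ± 0.46 (adjusted p = 0.00695). Erg, an ETS factor that maintains endothelial identity (chr16:95581954-95582013, minus strand), read 8.07, 8.48, 8.77 and 8.95 and then 6.98, 7.42, 7.69 and 7.08 off the fiber. On the fiber it read 5.31, 5.95 and 4.68 with 6.00 in the pool at 48 hr and 1.62, 5.33, 1.94 and 3.03 at 72 hr. Only 1 of these last 4 arrays was above background, and that value, 5.33, lay within the 48-hr range. Erg passed in dispersed myoblasts (-1.27 ± 0.22, limma, adjusted p = 0.00447) and not on the fiber (-2.50 ± 0.76, adjusted p = 0.0482). Neither value of Erg was firm. The dispersed call held in 9 of 17 alternatives (limma, adjusted p of 0.00158 to 0.225). It was lost without replicate 5, 6 or 8 at 72 hr or replicate 2, 3 or 4 at 48 hr. The fiber change was -0.63 with normexp background correction (adjusted p = 0.0793) and -1.13 with the other probe (adjusted p = 0.304). That probe was above background on 1 of 4 fiber arrays at 48 hr and on none at 72 hr. Tal1, a factor of endothelial and blood cells, changed by -1.26 ± 0.16 (adjusted p = 0.00107) and -2.25 ± 0.43 (adjusted p = 0.0110), with 2 of 4 arrays above background at 72 hr on the fiber.

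Among the secreted and intracellular proteins 6 of 8 passed off the fiber (median -1.34 on the log2 scale) and 5 of 8 on it (median -1.77). Vwf, von Willebrand factor (chr6:125636551-125636610, plus strand), read 14.60, 14.83, 14.80 and 15.10 and then 13.17, 13.44, 13.68 and 13.69 in dispersed myoblasts. The myofiber-associated arrays gave 10.83, 11.21 and 10.64 with 11.90 in the pool, and then 10.13, 10.28, 9.38 and 9.69. Every group stood apart, with a change of -1.34 ± 0.14 (limma, adjusted p = 0.000469) off the fiber and of -1.28 ± 0.30 (adjusted p = 0.0228) on it. Nos3, the endothelial nitric oxide synthase (chr5:23890038-23890097, plus strand), read 11.80, 12.19, 12.35 and 12.64 and then 10.57, 10.90, 11.30 and 10.84 off the fiber. Its values on the fiber were 9.95, 10.31 and 9.43 with 10.51 in the pool, and then 8.40, 8.71, 8.12 and 8.13. Nos3 changed by -1.34 ± 0.20 (limma, adjusted p = 0.00243) and -1.71 ± 0.24 (adjusted p = 0.00411), without overlap between times.

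Esm1, a proteoglycan that endothelial tip cells secrete (chr13:114008204-114008263, plus strand), differed little between times. It read 13.16, 13.44, 13.30 and 13.41 and then 13.10, 13.17, 13.14 and 12.89 in dispersed myoblasts, and 11.48, 11.83 and 11.38 with 12.24 in the pool and then 11.57, 11.16, 10.95 and 11.27 on the fiber. The times overlapped in both cultures, and its changes of -0.25 ± 0.09 and -0.50 ± 0.21 did not pass (limma, adjusted p = 0.0627 and 0.113). An exact permutation test of 4 against 4 arrays, two-sided, gave p = 0.0571 and 0.0857, where 0.0286 is the smallest p that this design allows. Mmrn2, an extracellular matrix protein of endothelium, and Rasip1, which shapes the vessel lumen, fell in both cultures, with changes of -1.94 ± 0.10 and -1.84 ± 0.15 off the fiber and -2.37 ± 0.31 and -2.14 ± 0.34 on it. Egfl7, a secreted factor of endothelial cells, fell by 1.48 ± 0.14 off the fiber (adjusted p = 0.000290) and changed by -1.63 ± 0.30 on it, just short of the threshold. Myct1 changed by -0.91 ± 0.16 (adjusted p = 0.00489) and -1.84 ± 0.27 (adjusted p = 0.00434).

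The change over time differed between the cultures for 3 of the 35 genes (interaction of culture and time on 16 arrays, limma, adjusted p), where 3.45% of all genes tested passed. The difference, dispersed change minus myofiber-associated change, was 2.33 ± 0.41 (SE) for Emcn (adjusted p = 0.00369), 1.94 ± 0.35 for Apold1 (adjusted p = 0.00453) and -1.83 ± 0.21 for Ly6c1 (adjusted p = 0.000460). Without the dispersed 72-hr replicate 6, or without replicate 7, only Ly6c1 passed. Over 24 alternatives the difference of Ly6c1 passed in 24, that of Emcn in 21 and that of Apold1 in 18, with no change of sign. With normexp background correction the difference of Emcn was 1.22 and did not pass (adjusted p = 0.0137). The second probes of Ly6c1 (-1.38, adjusted p = 0.0109) and Apold1 (1.45, adjusted p = 0.0536) did not pass either. At a threshold of 0.05, 6 of the 35 genes passed, where 15.4% of all genes tested passed. Over the 35 genes the median difference was 0.42, against -0.07 over all genes tested.

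Emcn, a sialomucin of capillary and venous endothelium (chr3:137086389-137086448, plus strand), read 11.00, 11.25, 11.34 and 11.25 and then 10.42, 10.80, 10.97 and 10.47 in dispersed myoblasts. In myofiber-associated myoblasts the signal was 7.83, 8.03 and 7.34 with 8.71 in the pool, and then 5.48, 5.61, 4.26 and 5.06. The dispersed times lay close without overlapping, while on the fiber the change was -2.88 ± 0.36 log2 units (limma, adjusted p = 0.00252), the largest fall among the members tested there, and -1.74 with normexp background correction (adjusted p = 0.00412). Apold1, an endothelial protein induced early after stress (chr6:134936562-134936621, plus strand), read 9.69, 10.17, 10.37 and 10.35 and then 10.01, 10.28, 10.60 and 10.01 off the fiber, where the times overlapped. On the fiber it read 9.05, 9.72 and 8.84 with 10.03 in the pool, and then 7.87, 7.44, 7.18 and 7.71, a change of -1.86 ± 0.28 (adjusted p = 0.00489). Ly6c1 went the other way, with the larger change off the fiber.

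**Figure D4:**
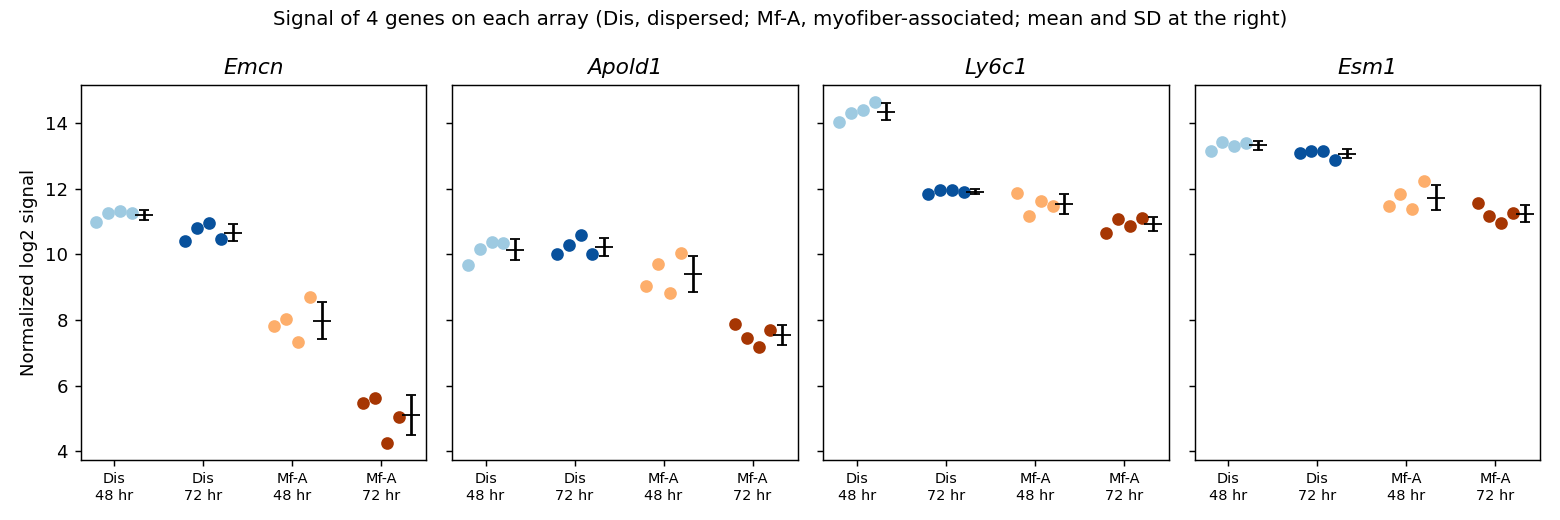
Normalized log2 signal (vertical axis) of Emcn, Apold1, Ly6c1 and Esm1 on each array of the 4 groups, with the mean and SD at the right of each group. Emcn and Apold1 change mainly between the fiber groups, Ly6c1 mainly between the dispersed groups, and Esm1 differs by culture more than by time.

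Between the cultures, 32 of 35 genes were lower in myofiber-associated than in dispersed myoblasts at 48 hr and none was higher (limma, adjusted p), where 32.5% of all genes tested were lower. The median difference was -2.63 log2 units, a fold of 6.21, against -0.12 over all genes tested. Kdr by its brighter probe, Calcrl and Apold1 did not pass. At 72 hr 33 of 35 were lower, where 18.4% of all genes tested were lower, and the median difference was -3.04, a fold of 8.23. Kdr was the 1 member that was higher on the fiber at 72 hr (0.28 ± 0.08, adjusted p = 0.00816), where 12.9% of all genes tested were higher, and its other probe gave a difference of -3.46 ± 0.28 there (adjusted p = 3.94e-07). The largest difference at 48 hr was that of Vwf (-3.69 ± 0.25, adjusted p = 6.96e-08) and the largest at 72 hr that of Emcn (-5.56 ± 0.29, adjusted p = 6.87e-09). Among the 5 classes the transcription factors had the largest median difference, -3.03 at 48 hr and -4.08 at 72 hr, and the other receptors the smallest, -1.10 and -1.32. These values carry the slide as well as the culture. Many markers of other cell types were lower on the fiber too. At 48 hr these were 13 of 17 leukocyte genes (median -1.53), 9 of 14 pericyte and smooth muscle genes (median -1.90) and 5 of 7 Schwann cell genes (median -2.41). At 72 hr they were 13 of 17 (median -1.47), 7 of 14 (median -0.79) and 4 of 7 (median -1.95). Higher on the fiber was 1 pericyte and smooth muscle gene at 48 hr. The leukocyte gene Cd68 was higher there at both times (2.14 ± 0.24 and 1.77 ± 0.24, limma, adjusted p = 5.91e-06 and 5.56e-05). Of 12 fibroblast genes, 2 were lower and 1 higher at 48 hr, and 6 lower and 1 higher at 72 hr.

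Genes of mature muscle fibers moved the opposite way between the cultures. The mean log2 signal of the 10 adult fiber genes was 8.85 to 10.07 and 7.94 to 8.45 on the dispersed 48- and 72-hr arrays, far below the fiber values given above. All 10 were higher on the fiber at 48 hr, with a median difference of 6.38 log2 units, and 9 of 10 at 72 hr, with a median of 5.97. Of all 20317 genes tested, 3878 were higher on the fiber at 48 hr and 2621 at 72 hr. Over time their median change was -1.61 off the fiber, with 5 of 10 passing, and -1.98 on it, with 1 of 10 passing. Those that passed were lower at 72 hr, as were 6.35% of all genes tested off the fiber and 1.75% on it. On the myofiber-associated 72-hr arrays their mean ran from 12.73 in replicate 3 to 15.14 in replicate 4, while the endothelial mean was lowest in replicate 3 and highest in replicate 2. At 48 hr on the fiber the lists ran in opposite order at their ends: the pool had the lowest fiber mean (15.51) and the highest endothelial mean (10.14), and replicate 9 the highest fiber mean (16.28) and the lowest endothelial mean (9.10). The 10 myoblast genes tested had median changes of 0.30 and 0.61. What part fiber RNA has in the signal of the endothelial genes was not tested.

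The list of 38 other endothelial genes, none of them in the set, moved mostly in the same direction. Of the 34 tested, 25 fell and none rose in dispersed myoblasts (log2 changes of -2.68 to 0.14), and 13 fell and 1 rose on the fiber (median -1.46). The changes on the fiber ran from -3.21 to 0.93, with 27 below 0 and 7 above it. Over all genes tested, 6.35% fell in dispersed myoblasts and 1.75% on the fiber. Gja4, a connexin of arterial endothelium, changed by -2.68 ± 0.20 and -2.21 ± 0.28 (limma, adjusted p = 0.000105 and 0.00274). Its partner connexin Gja5 fell by 2.42 ± 0.21 off the fiber (adjusted p = 0.000199) and changed by -2.13 ± 0.50 on it (adjusted p = 0.0218). The adhesion receptor Eltd1 changed by -1.56 ± 0.13 and -2.42 ± 0.41 (adjusted p = 0.000142 and 0.00758). The cultures differed in this list too, with 29 of 34 genes lower on the fiber at 48 hr and 1 higher, where 32.5% of all genes tested were lower. These differences ran from -4.04 to 4.05.

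Of 14 ligands of the member receptors, 11 were tested. Over time 3 rose and none fell in dispersed myoblasts (median 0.20), where 7.37% of all genes tested rose and 6.35% fell. On the fiber 1 rose and 1 fell (median -0.38), where 3.74% of all genes tested rose and 1.75% fell. Between the cultures 4 were lower and 2 higher on the fiber at 48 hr, where 32.5% of all genes tested were lower. At 72 hr 5 were lower and none higher, where 18.4% of all genes tested were lower, with Angpt2 at -5.39 ± 0.23 (limma, adjusted p = 2.04e-09). Angpt1, the ligand that activates Tek, rose by 1.54 ± 0.10 off the fiber (limma, adjusted p = 5.60e-05) and changed by 1.49 ± 0.31 on it (adjusted p = 0.0149). Angpt2, an angiopoietin that endothelial cells themselves release, fell by 2.14 ± 0.29 on the fiber (adjusted p = 0.00334) and changed by -0.55 ± 0.12 off it (adjusted p = 0.0104), and this difference between the cultures passed (1.59 ± 0.33, adjusted p = 0.00874). Pgf, a ligand of Flt1, rose by 0.97 ± 0.16 on the fiber (adjusted p = 0.00655) and changed by 0.20 ± 0.13 off it. Adm, adrenomedullin, which binds Ramp2 with Calcrl, is named after its values were seen: it rose by 0.93 ± 0.14 off the fiber (adjusted p = 0.00249) and changed by -0.99 ± 0.22 on it (adjusted p = 0.0193), with a difference of 1.92 ± 0.28 (adjusted p = 0.00131).

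Markers of other cells that a muscle preparation can hold were read beside these genes. The counts of this paragraph and the next stand beside the shares of all genes tested. Those were 6.35% falling and 7.37% rising off the fiber, and 1.75% falling and 3.74% rising on it. Of 14 pericyte and smooth muscle genes tested, 4 fell and 1 rose in dispersed myoblasts (median -0.44) and 2 fell and 2 rose on the fiber (median -0.52). The pericyte genes Kcnj8, Abcc9 and Rgs5 had the largest falls off the fiber, with log2 changes of -3.52 ± 0.67, -2.63 ± 0.38 and -2.11 ± 0.42 (limma, adjusted p = 0.00676, 0.00206 and 0.00832). Over the whole list the changes ran up to 1.90 off the fiber and 1.98 on it. The dispersed 72-hr signal of Kcnj8 was low, with a mean of 4.25 (SD 1.34). Of 17 leukocyte genes tested, 4 fell and 1 rose off the fiber (median -0.76) and none fell and 1 rose on it (median -0.55). Their mean signal was 9.16 to 9.45 and 8.49 to 8.99 on the dispersed 48- and 72-hr arrays and 7.70 to 8.16 and 6.40 to 7.58 on the fiber, where 11 of 17 stayed above background on every 72-hr array.

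Of 7 Schwann cell genes tested, 5 fell off the fiber (median -0.97) and none passed on it (median -0.59). Of 12 fibroblast genes tested, 1 fell and 2 rose off the fiber (median -0.04), and 3 fell and 1 rose on it (median -0.88). Ly6a, which fibroblasts and endothelial cells of muscle both carry, fell by 2.35 ± 0.08 off the fiber (limma, adjusted p = 8.21e-06) and changed by -0.71 ± 0.22 on it (adjusted p = 0.0491), with a difference between the cultures of -1.63 ± 0.25 (adjusted p = 0.00151). Only 4 of 13 platelet and red cell genes passed the filter, and 5 of the 13 were above background on no array, namely Gp1ba, Gp9, Gp6, Hbb-b1 and Alas2. Of the 4 tested, 2 fell and 1 rose off the fiber, and 3 fell and 1 rose on it. Pf4, a platelet chemokine that macrophages also make, changed by -1.73 ± 0.19 and -2.26 ± 0.29 (limma, adjusted p = 0.000534 and 0.00287). Epor went the other way and rose by 0.66 ± 0.11 off the fiber and 3.29 ± 0.28 on it (adjusted p = 0.00358 and 0.000788). Ppbp changed by 0.88 ± 0.29 off the fiber (adjusted p = 0.0580) and -2.97 ± 0.51 on it (adjusted p = 0.00788). What part these other cells have in the signal of the endothelial genes was not tested.

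**Figure D5:**
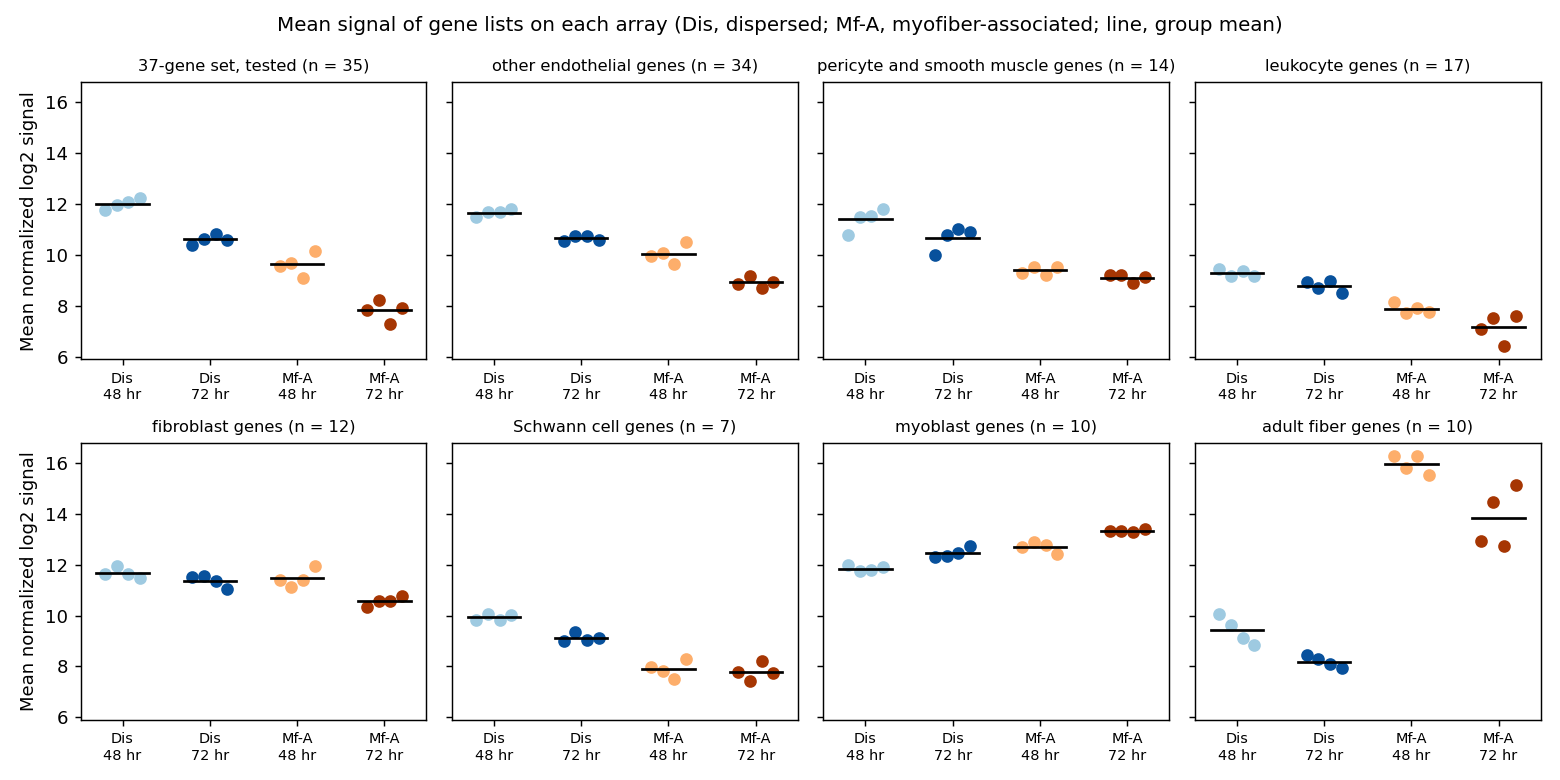
Mean normalized log2 signal (vertical axis) over the tested genes of 8 lists on each array of the 4 groups, with a line at the group mean. The endothelial set steps down over the groups from 11.77 to 12.23 in dispersed 48-hr myoblasts to 7.28 to 8.24 in myofiber-associated 72-hr myoblasts. The adult fiber genes are high on the fiber, and the mean of the myoblast genes rises over the same groups from 11.85 to 13.34. At 48 hr the median difference of the myoblast genes, myofiber-associated minus dispersed, was -0.41, while that of Myog was 8.25.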

How the data were processed

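The authors deposited, for each array, the scanner's fluorescence intensity per spot, background-corrected by Agilent Feature Extraction 11.0.1.1 per the file headers, and a table of log2 ratios of the 72-hr arrays to their culture's 48-hr mean; the log base is not stated in the file, and slopes of 0.918 and 0.934 against log2 changes computed here fit base 2. Probe positions are those of mm9. After log2 and removal of outlier spots, loess (span 0.3, 4 iterations) set every array against the averaged 48-hr arrays of the same culture, and quantile normalization followed over all 16. Spots of one probe were averaged, the brightest probe on average represented a gene, and a median log2 signal of at least 5 was required. Tests used limma 3.58.1 (R 4.3.3) on 8 arrays per time comparison and 16 for the rest, in place of the samr package that the methods name. The fits were tested on simulated data. P-values were Benjamini-Hochberg adjusted across the tested genes (threshold 0.01).

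The members, lists and tests were chosen with earlier results of these data known. Values on every array are given for genes fixed by name, at least 1 per class, and for the 3 largest called changes of each time comparison; other lists are represented by at most 3 called genes. Replicates are separate preparations per the labels. Alternatives were normexp background correction (offset 50), 75th-percentile scaling, quantile normalization alone, other filters, the mean of probes, the slide row as a block, a threshold of 0.05, 1 fit of all arrays, the deposited table, and each array left out in turn; the other Kdr probe was added after its values were seen.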

Additional observations from a re-analysis of the deposited data

Results flagged for a closer look

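Kdr, read by its brighter probe, had 1 myofiber-associated 48-hr array apart from the others. The pooled replicate read 12.19, the nearest of the other 3 read 12.44, and this gap was 0.845 of the range of the group. It was the only such array among 80 groups of 4 looked at, where chance flags about 1 in 20, and that array carried the highest signal of its group for 29 of the 35 genes tested.

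The change over time of 3 members differed between the cultures in the interaction fit (limma, adjusted p over all genes). The dispersed change minus the myofiber-associated change was 2.33 for Emcn, 1.94 for Apold1 and -1.83 for Ly6c1. Their adjusted p over 24 alternatives ran from 0.000340 to 0.0137 for Emcn, from 0.000627 to 0.0142 for Apold1 and from 0.000122 to 0.00177 for Ly6c1.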

How the results depend on the processing

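The counts of members past the threshold in dispersed myoblasts (29 to 32 with an array left out) and between the cultures (32 to 35 at either time) stayed within 1.5 times of their values under the alternatives run. In myofiber-associated myoblasts the count of 21 became 4 with no filter, 10 with the slide row as a block, 33 at a threshold of 0.05 (9.13% of all genes tested), 33 in 1 fit of all 16 arrays, 32 with the deposited table, and 2 to 22 with an array left out. The median change there was -1.48 with normexp. Single changes on the fiber shrank with it too, to -1.83 for Tie1, -1.86 for Sox17 and -1.88 for Sox18. The interaction count of 3 became 6 at a threshold of 0.05, where 15.4% of all genes tested passed, 8 with the deposited table, and 1 to 4 with an array left out. In the deposited table the spread of the 48-hr arrays is left out, and the causes of the other changes were not tested.

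Kdr turned negative with the mean of its probes (-1.11 over time on the fiber, -1.59 between the cultures at 72 hr) and with its other probe (-2.31 and -3.46). The change of Apold1 in dispersed myoblasts was -0.07 without the 48-hr replicate 1 and 0.16 at its highest. No paired analysis was possible because the groups compared share no replicate numbers. Signal over background limits Flt4, Lyve1, Erg and Tal1 on the fiber at 72 hr.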
